A study of Mus musculus with 11 samples.

Results

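The epidermal differentiation complex is a cluster of genes on mouse chromosome 3 whose products build the cornified layer, the outermost barrier of the skin. Its genes were taken by symbol from the array annotation: all names starting with Lce or Sprr, all S100a names with a number, and Flg, Flg2, Lor, Ivl, Rptn, Hrnr, Tchh, Tchhl1, Crnn, Crct1 and Kprp. The rule found 45 genes among the 18194 genes that had a probe set annotated to them alone, and 35 of the 45 were bright enough to be tested. The 45 comprised 15 late cornified envelope (Lce) genes, 9 small proline-rich (Sprr) genes, 12 S100 genes, 5 fused S100 genes (Flg, Hrnr, Rptn, Tchh and Tchhl1) and 4 other envelope precursors (Lor, Ivl, Crct1 and Kprp). A further 20 genes that fit the rule, among them Flg2, Crnn, S100a11 and 3 Sprr2a genes, had no probe set of their own and were not analysed here.

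Expression was measured in whole mouse skin on Affymetrix 3' arrays, 1 array per mouse. The groups were 4 mice 24 h after 1 mg/kg ABBV-075, 4 mice 6 h after the same dose, and 3 mice given vehicle. ABBV-075 (mivebresib) inhibits the BET bromodomain proteins, which bind acetylated histones and help RNA polymerase to leave promoters. No source used here gives the strain, sex or age of the mice or the time at which vehicle skin was taken.

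As keratinocytes leave the basal layer they stop dividing, fill with keratins and, in the granular layer, switch on the genes of this complex. Involucrin, loricrin, the Sprr proteins and the Lce proteins are cross-linked by transglutaminases into an envelope under the cell membrane, while profilaggrin, stored in keratohyalin granules, is processed to filaggrin, which bundles keratin filaments. The S100 genes of the cluster encode small calcium-binding proteins, several of which are made by many other cells, and trichohyalin belongs to the hair follicle as well as to specialised epithelia.

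Values below are quantile-normalized probe set intensities on the log2(intensity + 16) scale, on which 4.00 is the floor. Each gene is represented by its brightest probe set, differences are fitted by limma over all 11 arrays, and adjusted p is the Benjamini-Hochberg value over 13710 genes with a threshold of 0.05. The scale understates the differences of dim genes. As deposited, the arrays were not equally bright, with trimmed means of 116 to 183 at 24 h, 82.8 to 244 at 6 h and 205 to 244 with vehicle. RNA quality also differed, since the ratio of 5' to 3' signal of beta-actin, which is low where RNA is shortened, was 0.198 to 0.529 at 24 h, 0.0725 to 0.425 at 6 h and 0.484 to 0.593 with vehicle. The 3 arrays lowest in that ratio were 24 h replicate 2 at 0.198, 6 h replicate 5 at 0.0725 and 6 h replicate 3 at 0.284. The same ratio for Gapdh was 0.104 on 6 h replicate 5 and 0.684 or more on every other array. It was 0.804 on 24 h replicate 2 and 0.711 on 6 h replicate 3, beside 0.698 to 0.911 with vehicle. Gapdh thus set apart only 6 h replicate 5. Markers of hair shaft and inner root sheath were highest on 24 h replicate 2 and on vehicle replicate 4. The design text counts 1 mouse per array, so p-values measure the spread between mice.

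The tissue label held against its markers. The 7 basal keratinocyte markers averaged 10.26 to 12.12 across the 24 h arrays, 9.92 to 11.52 across the 6 h arrays and 9.91 to 10.59 across the vehicle arrays. Within the complex, the lowest array read 12.06 for Lor, 11.62 for Crct1 and 11.51 for Lce1a1, far above the floor. In whole skin, fewer cells of a type and less RNA per cell cannot be told apart.

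The promoters of the complex were searched for sequence motifs, which the rule for choosing genes did not use. The genes were chosen by family name, however, and promoters of related genes can be alike. The 39 promoters below are therefore not independent. RefSeq promoter entries (build GRCm38.p6, 250 bases before the transcription start) were found for 39 of the 45 genes. A TATA box, searched as TATAAA on the gene's own strand in the last 100 bases before the start, was present in 18 of these 39 (46.2%), against 3.8% of all 32851 promoters. The AP-1 motif TGANTCA, which reads the same on both strands and is the type bound by Jun and Fos proteins, was present within the 250 bases in 13 of 39 (33.3%), against 6.75% of all promoters. The Grainyhead-type motif AACCNGTT on either strand was present in 2 of 39 (5.13%), against 1.79% of all promoters. No match of one motif overlapped a match of another in these genes.

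The matches were unevenly spread over the families. All 8 Sprr promoters held TATAAA and 7 of the 8 held TGANTCA, whereas TATAAA was in 2 of 14 Lce promoters and TGANTCA in 0 of 14. Both motifs were in the promoters of Lor and Ivl, and each was in 3 of the 5 fused S100 promoters. In the 10 S100 promoters there were 3 with TATAAA and 1 with TGANTCA. A match is a string of letters and not evidence of binding. The promoters of the 5 genes on which the results below turn are shown here 5' to 3', with TATAAA and TGANTCA matches in capitals. Flg and Lor encode the main granule and envelope proteins, Sprr1a and Sprr2d were the 2 Sprr genes with the largest differences, and Lce1i, the Lce gene of smallest p at 6 h against vehicle, has a promoter that holds neither motif.
Flg promoter, chr3:93273296-93273545, plus strand: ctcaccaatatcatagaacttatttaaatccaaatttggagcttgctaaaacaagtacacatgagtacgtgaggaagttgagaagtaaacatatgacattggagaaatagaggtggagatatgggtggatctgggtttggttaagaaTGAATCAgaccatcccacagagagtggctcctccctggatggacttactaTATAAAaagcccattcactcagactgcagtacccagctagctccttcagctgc
Lor promoter, chr3:92083143-92083392, minus strand: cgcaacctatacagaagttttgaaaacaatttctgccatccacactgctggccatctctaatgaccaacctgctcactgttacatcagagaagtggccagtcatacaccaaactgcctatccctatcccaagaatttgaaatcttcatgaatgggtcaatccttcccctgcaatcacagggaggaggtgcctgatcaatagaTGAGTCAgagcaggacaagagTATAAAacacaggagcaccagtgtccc
Sprr1a promoter, chr3:92485882-92486131, minus strand: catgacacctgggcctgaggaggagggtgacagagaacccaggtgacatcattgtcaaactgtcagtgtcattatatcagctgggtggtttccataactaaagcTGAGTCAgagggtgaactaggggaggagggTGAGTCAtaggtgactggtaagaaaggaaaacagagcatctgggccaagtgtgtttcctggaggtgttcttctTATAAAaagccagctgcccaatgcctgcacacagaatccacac
Sprr2d promoter, chr3:92338890-92339139, plus strand: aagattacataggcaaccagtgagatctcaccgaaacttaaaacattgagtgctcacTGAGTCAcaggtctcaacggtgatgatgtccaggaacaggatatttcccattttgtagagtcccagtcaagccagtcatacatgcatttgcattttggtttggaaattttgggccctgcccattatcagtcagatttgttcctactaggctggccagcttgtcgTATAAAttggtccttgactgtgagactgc
Lce1i promoter, chr3:92778900-92779149, minus strand: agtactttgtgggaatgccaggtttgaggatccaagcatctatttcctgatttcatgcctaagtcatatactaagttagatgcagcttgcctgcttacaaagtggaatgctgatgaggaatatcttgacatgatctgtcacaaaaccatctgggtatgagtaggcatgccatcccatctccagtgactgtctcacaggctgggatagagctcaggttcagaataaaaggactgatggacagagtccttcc
Counted from the transcription start, with the base before it as -1, TATAAA began at -53 in Flg, -27 in Lor, -43 in Sprr1a and -29 in Sprr2d. TGANTCA began at -103 in Flg, at -48 in Lor, at -193 in Sprr2d, and at both -146 and -116 in Sprr1a.

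No gene of the complex passed the threshold in any of the 3 contrasts. At 24 h against vehicle, 0 of 35 were called, beside 0% of all 13710 genes, and 6 of 35 (17.1%) had an unadjusted p under 0.05, beside 7.63% of all genes. At 6 h against vehicle, 0 of 35 were called, beside 0% of all genes, and 5 of 35 (14.3%) had an unadjusted p under 0.05, beside 16.1% of all genes. Between 24 h and 6 h, 0 of 35 were called, beside 0% of all genes, and 3 of 35 (8.57%) had an unadjusted p under 0.05, beside 9.27% of all genes. At 24 h S100a14 was the 1 higher (3.16% of all genes) and Flg, Lce1h, Lce1i, Sprr1a and Sprr2d were the 5 lower (4.47% of all genes). At 6 h Flg, Kprp and Lce1a1 were the 3 higher (8.02% of all genes) and Lce1i and Sprr2d the 2 lower (8.05% of all genes). Between 24 h and 6 h S100a16 was the 1 higher (3.76% of all genes) and Flg and Kprp the 2 lower (5.51% of all genes). The share of members was near that of all genes at 6 h and between the treated times, and above it at 24 h. The 24 h count includes Sprr2d, which passed the filter on dim genes through its 3 vehicle arrays. It also includes Lce1h and Lce1i, whose probe sets can match other transcripts. Counted by overlap of the arrays, the 24 h share was 11.4%, beside 11.1% of all genes. Whether the 24 h share exceeds that of all genes by more than chance was not tested.

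The groups of arrays did not overlap for 4 of 35 members (11.4%) at 24 h against vehicle, beside 11.1% of all genes. S100a14 was the 1 higher, beside 5.09% of all genes, and Flg, Lce1h and Lce1i were the 3 lower, beside 6.02%. At 6 h against vehicle the groups did not overlap for 6 of 35 members (17.1%), beside 18.5% of all genes. Flg and Kprp were the 2 higher, beside 9.77% of all genes, and Lce1h, Lce1i, S100a3 and Sprr2d the 4 lower, beside 8.77%. Between 24 h and 6 h they did not overlap for 2 of 35 (5.71%), beside 5.46% of all genes, with S100a16 higher at 24 h (1.92% of all genes) and Flg lower (3.54%). All 3 shares lie near those of the whole array.

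**Figure D1:**
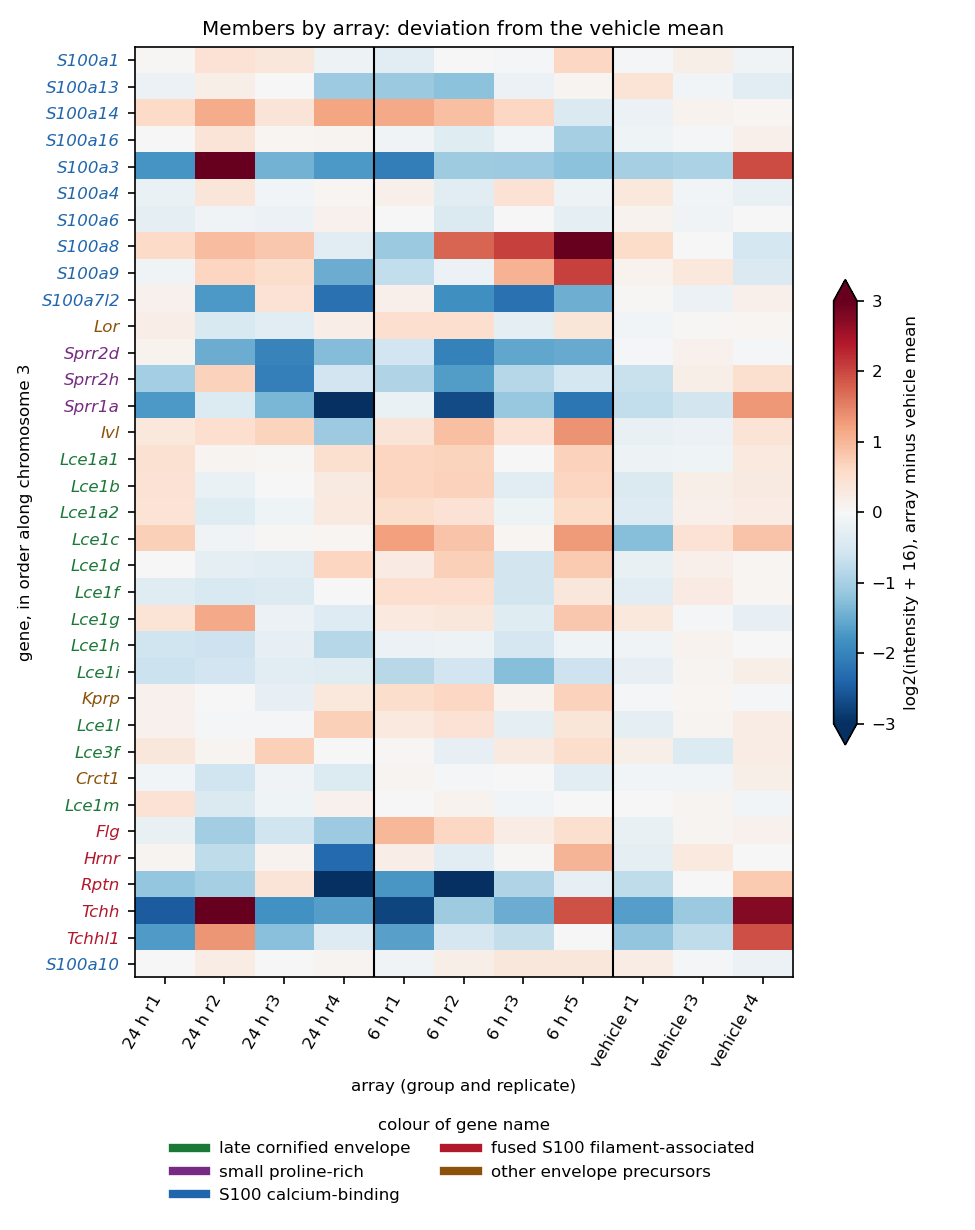
Each row is 1 of the 35 tested genes in their order on chromosome 3 and each column 1 array, with 24 h, 6 h and vehicle from left to right; colour is the array's log2(intensity + 16) minus the vehicle mean. The hair genes Tchh, Tchhl1 and S100a3 are bright on 24 h replicate 2 and vehicle replicate 4, and the Sprr rows are mostly below the vehicle mean in treated skin.

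The median difference of the 35 members was -0.089 at 24 h against vehicle, with 17 of 35 above 0, and all genes had a median of -0.020 with 47.6% above 0. At 6 h against vehicle the members' median was 0.15, with 21 of 35 above 0, and all genes had 0.0037 with 50.4% above 0. Between 24 h and 6 h the members' median was -0.021, with 15 of 35 above 0, and all genes had -0.019 with 47.4% above 0. The families pointed in different ways around these medians. On the values as deposited, without normalization, the median of all genes itself was -0.62 at 24 h against vehicle and -0.68 at 6 h against vehicle, so directions are given relative to the median gene where that scale is used.

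**Figure D2:**
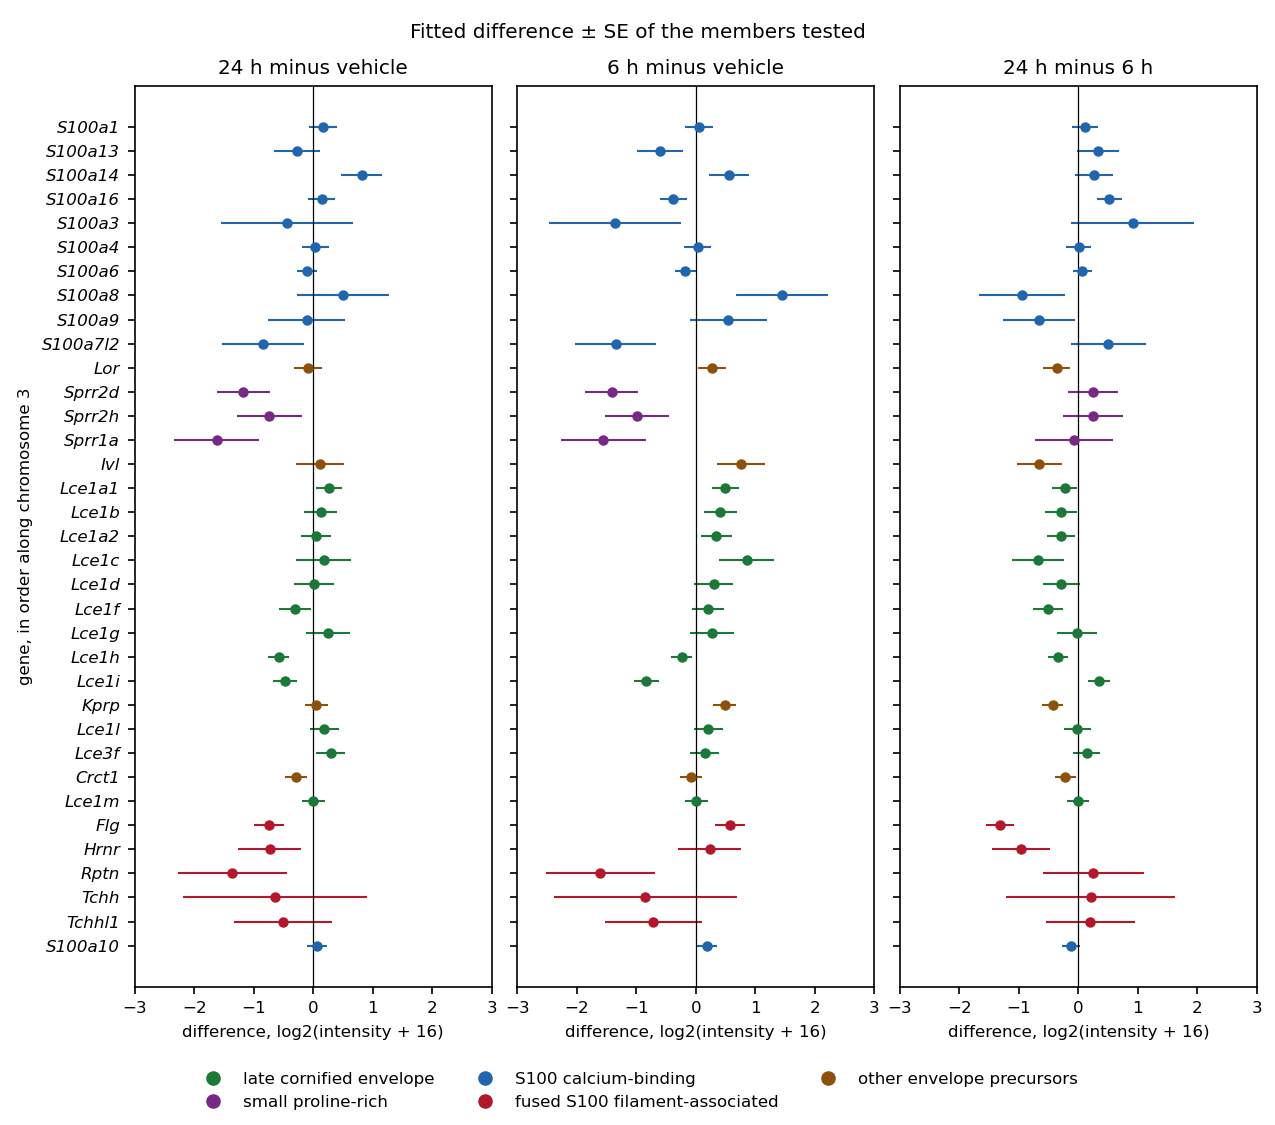
Points are fitted differences on the log2(intensity + 16) scale with their standard errors for the 35 tested genes by family, in 1 panel for each contrast, from left to right 24 h minus vehicle, then 6 h minus vehicle, then 24 h minus 6 h. The 3 Sprr genes lie below 0 in both panels against vehicle, and Flg lies at -0.74, 0.58 and -1.32 in the 3 panels.

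Flg, which encodes profilaggrin, had the smallest p of any member between the 2 treated times. It read 9.59, 8.79, 9.22 and 8.73 on the 24 h arrays (replicates 1 to 4), 10.82, 10.45, 10.03 and 10.29 on the 6 h arrays (replicates 1, 2, 3 and 5), and 9.60, 9.91 and 9.96 on the vehicle arrays (replicates 1, 3 and 4). All 4 arrays at 6 h stood above all vehicle arrays, and all 4 at 24 h stood below them, so that no pair of groups overlapped. The margin at 24 h was narrow, with 9.59 on 24 h replicate 1 beside 9.60 on vehicle replicate 1. The means were 9.08 ± 0.40 at 24 h (SD, n = 4), 10.40 ± 0.33 at 6 h (SD, n = 4) and 9.82 ± 0.19 with vehicle (SD, n = 3). Flg was lower by 1.32 ± 0.23 (SE) at 24 h than at 6 h, a fold of 0.401, with an adjusted p of 0.125. Against vehicle the difference was -0.74 ± 0.25 at 24 h (adjusted p = 0.552) and 0.58 ± 0.25 at 6 h (adjusted p = 0.291). With any 1 array left out, 24 h minus 6 h for Flg stayed between -1.49 and -1.18, and the adjusted p ran from 0.148 to 0.331. Weighting the arrays by their estimated precision called it, at -1.13 with an adjusted p of 0.0216. On the values as deposited, relative to the median gene, Flg differed by -0.85 at 24 h against vehicle, 0.49 at 6 h against vehicle and -1.36 between 24 h and 6 h.

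Hrnr encodes hornerin, a filaggrin-like protein of the cornified envelope. Its values were 9.53, 8.68, 9.56 and 7.11 at 24 h, 9.66, 9.11, 9.49 and 10.47 at 6 h, and 9.16, 9.75 and 9.44 with vehicle. The groups overlapped, and 24 h replicate 4 was far below every other array. The difference was -0.73 ± 0.53 at 24 h against vehicle (adjusted p = 0.74) and 0.23 ± 0.53 at 6 h against vehicle (adjusted p = 0.855). Without 24 h replicate 4 the first of these was -0.20, and without 6 h replicate 5 the second was -0.03.

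Rptn encodes repetin, another fused S100 precursor of the envelope. It read 7.26, 7.40, 8.80 and 4.73 at 24 h, 6.65, 4.88, 7.51 and 8.15 at 6 h, and 7.65, 8.38 and 9.18 with vehicle. The vehicle arrays were among the highest, and 1 array at each treated time (24 h replicate 4 and 6 h replicate 2) lay near the floor, with overlap in both cases. Rptn differed by -1.36 ± 0.92 at 24 h against vehicle (adjusted p = 0.725) and by -1.61 ± 0.92 at 6 h against vehicle (adjusted p = 0.412). These shrank to -0.59 without 24 h replicate 4 and to -0.97 without 6 h replicate 2. The other 2 probe sets of Rptn, both near the floor, differed by 0.06 and -0.15 at 24 h and by 0.10 and 0.13 at 6 h, so 3 of these 4 values had the opposite sign. All 5 fused S100 genes were lower at 24 h than with vehicle, with a median of -0.73, and 5 of 5 were below the median gene with quantile, median and loess scaling and on the values as deposited. This count rested on vehicle replicate 4, without which 3 of 5 were lower, with Tchh at 0.73 and Tchhl1 at 0.46. At 6 h, 2 of 5 were above vehicle with a median of -0.71. Without 24 h replicate 2 and vehicle replicate 4, the arrays of highest hair marker level, 5 of 5 were below vehicle at 24 h with a median of -0.62, and 4 of 5 were above it at 6 h with a median of 0.26.

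**Figure D3:**
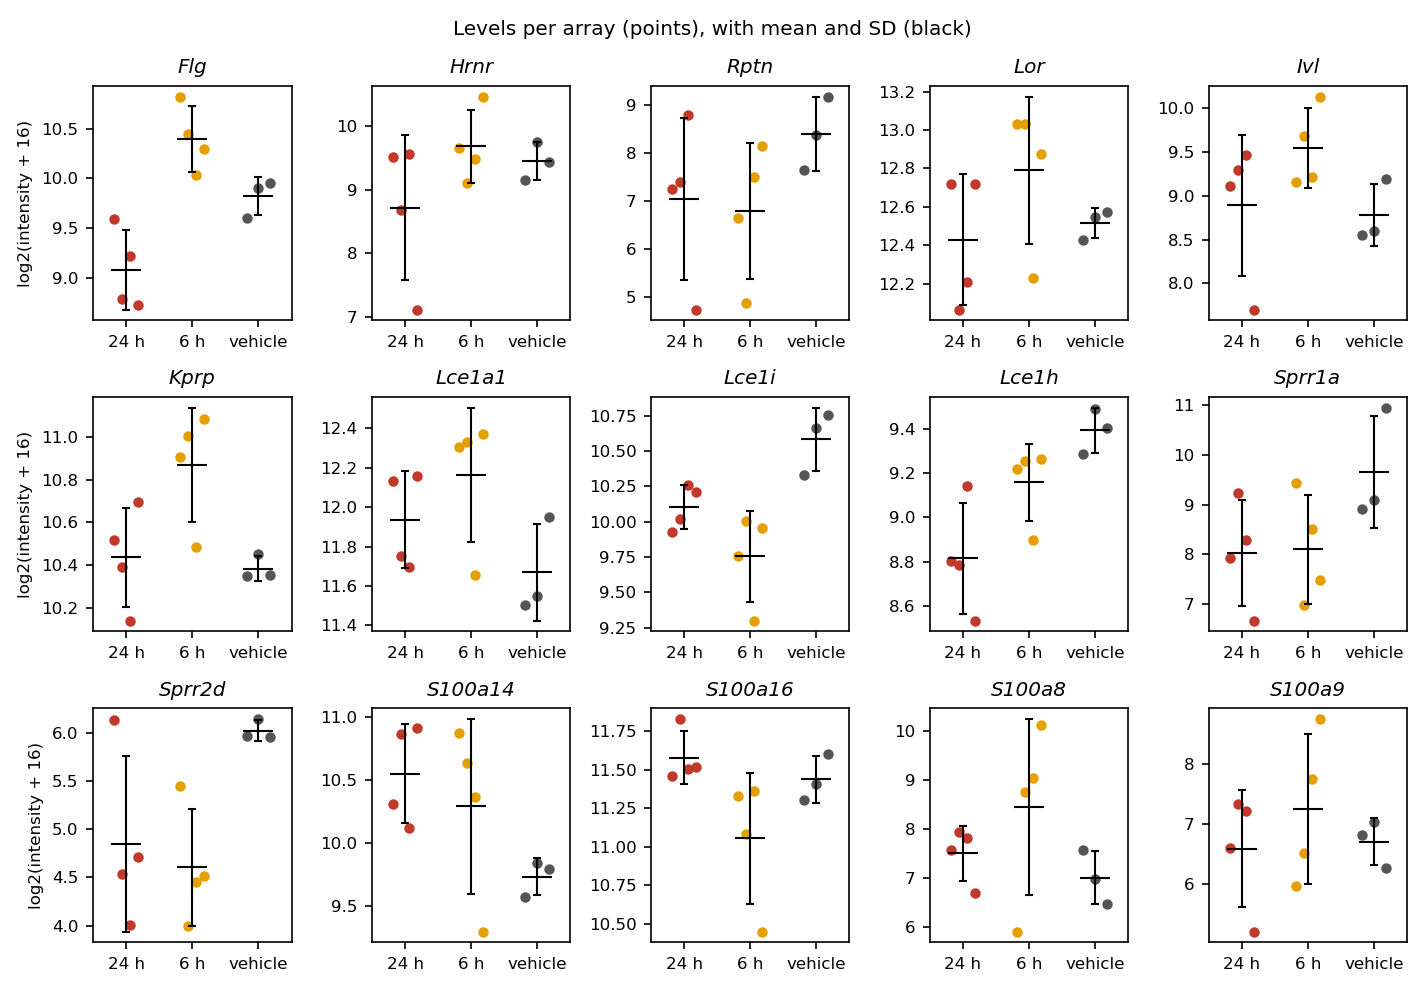
Points are single arrays on the log2(intensity + 16) scale with the group mean and SD for 15 members, with 24 h, 6 h and vehicle from left to right in each panel. Flg is separated in all 3 groups, Lce1i and Sprr2d lie lower at 6 h than with vehicle, and Lor overlaps throughout.

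Loricrin, encoded by Lor, is the most abundant protein of the cornified envelope. Its brightest probe set read 12.72, 12.06, 12.21 and 12.72 at 24 h, 13.03, 13.03, 12.23 and 12.88 at 6 h, and 12.43, 12.55 and 12.57 with vehicle. The vehicle arrays lay within a narrow band that both treated groups spanned. Lor differed by -0.09 ± 0.24 at 24 h against vehicle (adjusted p = 0.938), 0.27 ± 0.24 at 6 h against vehicle (adjusted p = 0.598) and -0.36 ± 0.22 between 24 h and 6 h (adjusted p = 0.667). A second bright probe set of Lor disagreed in sign at 6 h. It read 12.39, 11.23, 11.97 and 12.68 at 24 h, 12.98, 12.60, 11.62 and 11.42 at 6 h, and 12.37, 12.50 and 12.58 with vehicle, which gave -0.41 at 24 h and -0.33 at 6 h against vehicle. Its 3 lowest arrays, 24 h replicate 2, 6 h replicate 5 and 6 h replicate 3, are the 3 arrays of lowest actin ratio. The brightest probe set was also low on 24 h replicate 2 and 6 h replicate 3, but not on 6 h replicate 5. The part of RNA length in this disagreement was not tested. Without these 3 arrays the brightest probe set differed by 0.03 at 24 h and by 0.51 at 6 h against vehicle.

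**Figure D4:**
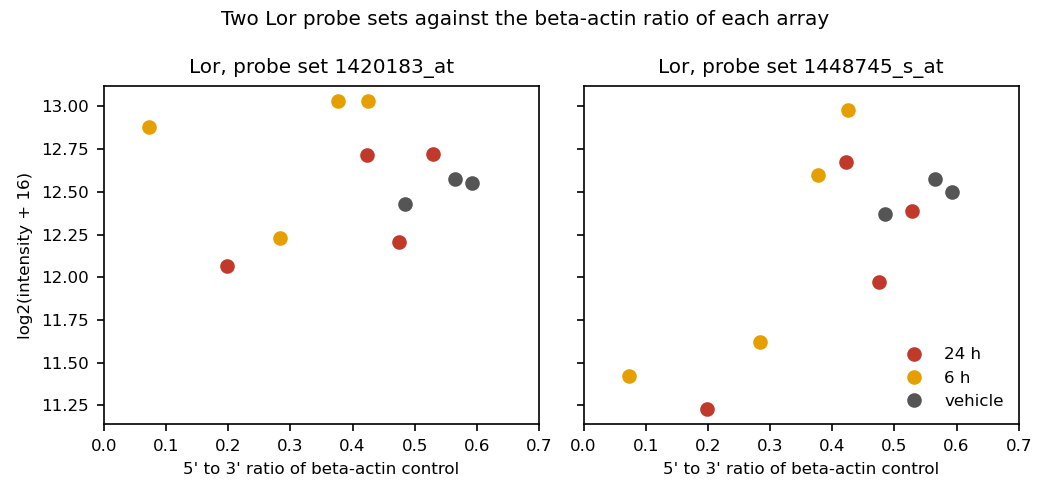
The level of 2 Lor probe sets (log2(intensity + 16), vertical) is plotted against the beta-actin 5' to 3' signal ratio of the same array (horizontal), with arrays of 24 h, 6 h and vehicle marked. The second probe set is lowest, at 11.23, 11.42 and 11.62, on the 3 arrays whose ratio is under 0.3, where the brightest probe set reads 12.06, 12.88 and 12.23.

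Ivl encodes involucrin, an early scaffold of the envelope. It read 9.11, 9.30, 9.46 and 7.70 at 24 h, 9.16, 9.68, 9.22 and 10.13 at 6 h, and 8.55, 8.60 and 9.19 with vehicle. At 6 h, 3 of the 4 arrays stood above every vehicle array, and replicate 1 lay just inside the vehicle range. Ivl differed by 0.76 ± 0.40 at 6 h against vehicle (adjusted p = 0.379) and by 0.11 ± 0.40 at 24 h against vehicle (adjusted p = 0.955). Without 24 h replicate 4, its lowest array, the 24 h value was 0.51. A second probe set of Ivl differed by 0.03 at 24 h and 0.18 at 6 h. The array 24 h replicate 4, lowest of its group for Hrnr, Rptn and Ivl, had the highest mean of basal keratinocyte markers of all arrays, 12.12, and the lowest mean of fibroblast markers, 10.37, and their part in these values was not tested.

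Kprp encodes keratinocyte proline-rich protein. Its values were 10.52, 10.39, 10.14 and 10.69 at 24 h, 10.91, 11.002, 10.49 and 11.09 at 6 h, and 10.35, 10.45 and 10.35 with vehicle. All 6 h arrays lay above all vehicle arrays, and the 24 h arrays bracketed the vehicle arrays. Kprp was higher by 0.49 ± 0.19 at 6 h, 1.40-fold, with an adjusted p of 0.262, and differed by 0.05 ± 0.19 at 24 h (adjusted p = 0.955). On the values as deposited the 6 h difference of Kprp was -0.23, which is 0.45 above the median gene. Crct1, a cysteine-rich gene of the cluster, read 12.14, 11.62, 12.11 and 11.81 at 24 h and 12.31, 12.16, 12.21 and 11.88 at 6 h. With vehicle it read 12.129, 12.125 and 12.399. Crct1 differed by -0.30 ± 0.18 at 24 h (adjusted p = 0.70) and -0.08 ± 0.18 at 6 h (adjusted p = 0.857). The 4 envelope precursors were all lower at 24 h than at 6 h, with a median of -0.40, and 3 of the 4 were higher at 6 h than with vehicle, with a median of 0.38.

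The Lce genes encode small envelope proteins made late in differentiation, and 12 of the 15 were tested. At 24 h against vehicle 9 of 12 were above 0, with a median of 0.085. At 6 h against vehicle 10 of 12 were above 0, with a median of 0.24, and between 24 h and 6 h only 2 of 12 were above 0, with a median of -0.26. At 6 h, 10 of 12 were above the median gene on the values as deposited and with median scaling and 9 of 12 with loess, although only 1 of 12 was above 0 as deposited. The mean deviation of the family from its vehicle mean was 0.15, -0.15, -0.087 and 0.084 on the 24 h arrays, 0.28, 0.32, -0.31 and 0.44 on the 6 h arrays, and -0.24, 0.075 and 0.17 on the vehicle arrays, so the groups overlapped. The array 6 h replicate 3 was the lowest of the 6 h arrays for 11 of the 12 genes, Lce3f being the exception.

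Lce1a1 read 12.14, 11.75, 11.70 and 12.16 at 24 h, 12.31, 12.33, 11.66 and 12.37 at 6 h, and 11.51, 11.55 and 11.95 with vehicle. At 6 h, 3 of the 4 arrays lay above all vehicle arrays and replicate 3 lay among them. Lce1a1 differed by 0.27 ± 0.22 at 24 h (adjusted p = 0.767) and by 0.50 ± 0.22 at 6 h (adjusted p = 0.304). Its second probe set gave 0.22 at 24 h and 0.45 at 6 h. Lce1c had the largest positive difference of the family at 6 h, 0.85 ± 0.47 (adjusted p = 0.398). It read 11.16, 10.34, 10.47 and 10.49 at 24 h, 11.67, 11.29, 10.49 and 11.71 at 6 h, and 9.17, 10.86 and 11.28 with vehicle, where replicate 1 alone was low. The groups of Lce1c overlapped, and without vehicle replicate 1 its difference was 0.22 at 6 h. Lce1f read 9.72, 9.62, 9.66 and 10.10 at 24 h and 10.58, 10.60, 9.53 and 10.43 at 6 h. With vehicle it read 9.77, 10.32 and 10.15. Between 24 h and 6 h Lce1f differed by -0.51 ± 0.25 (adjusted p = 0.577), which was -0.76 without 6 h replicate 3. Against vehicle it differed by -0.31 ± 0.27 at 24 h (adjusted p = 0.78) and by 0.20 ± 0.27 at 6 h (adjusted p = 0.737). A second, dimmer probe set of Lce1f disagreed in sign at 6 h, with -0.44 at 24 h and -0.26 at 6 h.

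Lce1i and Lce1h went the other way. Lce1i read 9.93, 10.02, 10.26 and 10.21 at 24 h, 9.75, 10.01, 9.30 and 9.96 at 6 h, and 10.33, 10.66 and 10.76 with vehicle. Every treated array, at either time, lay below every vehicle array. Lce1i was lower by 0.48 ± 0.20 at 24 h (adjusted p = 0.632) and by 0.83 ± 0.20 at 6 h, a fold of 0.563 (adjusted p = 0.147). With 1 array left out the 6 h value ran from -0.96 to -0.68 and its adjusted p from 0.103 to 0.411. Lce1h read 8.80, 8.78, 9.14 and 8.53 at 24 h, 9.22, 9.26, 8.90 and 9.27 at 6 h, and 9.29, 9.49 and 9.41 with vehicle. Again no treated array reached the vehicle range. Lce1h was lower by 0.58 ± 0.18 at 24 h, a fold of 0.668 (adjusted p = 0.531), and by 0.24 ± 0.18 at 6 h (adjusted p = 0.544). The probe sets of Lce1h and Lce1i carry the suffix that marks probes able to match other transcripts. Neither gene has another probe set of its own, so signal from near-identical Lce genes cannot be separated. The probe sets used for Lce1d and Lce1m, and for Sprr2h, S100a1, S100a8 and S100a10, carry suffixes of this kind as well. The other Lce genes tested (Lce1a2, Lce1b, Lce1d, Lce1g, Lce1l, Lce1m and Lce3f) differed by 0.00 to 0.29 at 24 h and by 0.01 to 0.41 at 6 h.

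The Sprr genes encode proline-rich cross-bridging proteins of the envelope, several of which are induced in stressed epidermis. Only 3 of 9, Sprr1a, Sprr2d and Sprr2h, were bright enough to be tested, and all 3 read lower than vehicle at both times with quantile and median scaling and, relative to the median gene, on the values as deposited. That count is no support for a common direction, since Sprr2d was kept through its 3 vehicle arrays and exceeded the filter's level on only 2 treated arrays. The probe set of Sprr2h can also match other transcripts. With loess 1 more Sprr gene entered, and 1 of the 4 was above the median gene at 24 h and 0 of 4 at 6 h. Over all 9 Sprr genes without the filter, 3 were above and 5 below vehicle at 24 h (median -0.13), and 2 were above and 6 below at 6 h (median -0.19), with Sprr2j-ps at the floor on every array. The other 6 Sprr genes were each above the filter's level of 5.21 on at most 2 arrays.

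Sprr1a read 7.93, 9.23, 8.29 and 6.66 at 24 h, 9.44, 6.98, 8.51 and 7.48 at 6 h, and 8.91, 9.10 and 10.95 with vehicle. Both treated groups overlapped vehicle through 1 array each. Sprr1a was lower by 1.62 ± 0.72 at 24 h, a fold of 0.324 (adjusted p = 0.644), and by 1.55 ± 0.72 at 6 h, a fold of 0.341 (adjusted p = 0.317). The high vehicle replicate 4 carried part of this, since without it the differences were -0.97 at 24 h and -0.90 at 6 h. That vehicle array was also the vehicle array highest in hair markers, whose part in the result was not tested.

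Sprr2d read 6.14, 4.53, 4.006 and 4.71 at 24 h, 5.45, 4.00, 4.46 and 4.52 at 6 h, and 5.96, 6.14 and 5.95 with vehicle. All 6 h arrays lay below all vehicle arrays, and at 24 h replicate 1 alone reached the vehicle level. Sprr2d was lower by 1.17 ± 0.45 at 24 h (adjusted p = 0.59) and by 1.42 ± 0.45 at 6 h, a fold of 0.375 (adjusted p = 0.199). Since treated arrays lay at or near the floor, the size of this difference depends on the constant added before the logarithm, and with 64 in place of 16 it was -0.51 at 24 h and -0.62 at 6 h. Sprr2h, the third gene, read 5.04, 6.75, 4.00 and 5.46 at 24 h, 5.15, 4.38, 5.19 and 5.53 at 6 h, and 5.39, 6.22 and 6.54 with vehicle, with overlap at both times and differences of -0.74 ± 0.54 at 24 h, which was -0.30 without 24 h replicate 3, and -0.98 ± 0.54 at 6 h.

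The 11 tested S100 genes had no common direction. At 24 h against vehicle 6 of 11 were above 0, with a median of 0.035, and at 6 h 6 of 11 were above 0, with a median of 0.030. Between 24 h and 6 h 8 of 11 were above 0, with a median of 0.11. Without the 3 arrays of lowest actin ratio 3 of 11 were above 0 at 6 h, with a median of -0.21.

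S100a14, an epithelial S100 protein, read 10.31, 10.86, 10.12 and 10.91 at 24 h, 10.87, 10.63, 10.37 and 9.30 at 6 h, and 9.57, 9.84 and 9.79 with vehicle. All 24 h arrays lay above all vehicle arrays, and at 6 h replicate 5 alone lay below them. S100a14 was higher by 0.81 ± 0.34 at 24 h, 1.76-fold (adjusted p = 0.629), and by 0.56 ± 0.34 at 6 h (adjusted p = 0.449), which became 0.89 without 6 h replicate 5. Its neighbour in the cluster, S100a16, read 11.46, 11.83, 11.50 and 11.52 at 24 h, 11.33, 11.08, 11.36 and 10.45 at 6 h, and 11.30, 11.41 and 11.60 with vehicle. All 24 h arrays were above all 6 h arrays, and the vehicle arrays overlapped both. S100a16 was higher by 0.52 ± 0.21 at 24 h than at 6 h, 1.44-fold (adjusted p = 0.476), but by 0.32 without 6 h replicate 5. A second bright probe set of S100a16 gave 0.45 between these times. Its groups overlapped, with 11.203 on 24 h replicate 1 and 11.305 on 6 h replicate 3. Beside these values, all 7 basal keratinocyte markers were above vehicle, with medians of 0.55 at 24 h and 0.57 at 6 h. At neither time did any of the 7 have an unadjusted p under 0.05 or arrays free of overlap with vehicle. Of 5 granular and cornified markers, 3 were above vehicle at 24 h (median 0.035) and 2 at 6 h (median -0.54). Of 7 suprabasal markers, 3 were above vehicle at 24 h (median -0.034) and 4 at 6 h (median 0.11). All 9 fibroblast markers were below vehicle, with medians of -0.62 at 24 h and -0.27 at 6 h. The 6 adipocyte markers tested were all below vehicle too, with medians of -0.75 at 24 h and -0.88 at 6 h, and of 6 endothelial markers 5 were below it at 24 h (median -0.73) and 6 at 6 h (median -0.86). On 24 h replicate 4 the basal markers averaged 12.12, beside 10.26 to 10.67 on the other 24 h arrays. The fibroblast markers of that array averaged 10.37, beside 11.83 to 12.16 on the others. Its adipocyte markers averaged 8.51, beside 10.31 to 11.23. The 24 h differences of these markers thus rest in part on that array. The part of these cell types in the results was not tested. The summed intensity of the basal markers was 12960 to 43032 at 24 h, 12391 to 32012 at 6 h and 9880 to 19360 with vehicle.

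S100a8 and S100a9 encode the 2 chains of calprotectin, which is abundant in neutrophils and induced in stressed keratinocytes. S100a8 read 7.58, 7.94, 7.82 and 6.70 at 24 h, 5.90, 8.75, 9.05 and 10.12 at 6 h, and 7.57, 6.99 and 6.47 with vehicle. At 6 h, 3 of the 4 arrays were above every other array, and replicate 1 was the lowest of all 11. S100a8 differed by 0.50 ± 0.78 at 24 h (adjusted p = 0.879) and by 1.45 ± 0.78 at 6 h, 2.73-fold (adjusted p = 0.388). The 6 h value was 2.30 without 6 h replicate 1, 0.89 without 6 h replicate 5 and 0.32 without the 3 arrays of lowest actin ratio. S100a9 read 6.59, 7.34, 7.22 and 5.20 at 24 h, 5.97, 6.52, 7.74 and 8.75 at 6 h, and 6.81, 7.02 and 6.26 with vehicle. Its groups overlapped, its differences were -0.11 ± 0.65 at 24 h and 0.54 ± 0.65 at 6 h (adjusted p = 0.703 at 6 h), and without 6 h replicate 5 the 6 h value was 0.04. The summed intensity of the 10 neutrophil markers with a probe set was 933 to 1135 at 24 h, 620 to 920 at 6 h and 833 to 1566 with vehicle, with Cxcr2 at the floor on all arrays and Ltf and Mmp8 below the filter. The 6 h sums thus lay below the 24 h sums and overlapped the vehicle sums. The mean log2 levels of the same 10 markers overlapped between all groups. They were 5.20 to 5.48 at 24 h, 5.32 to 5.48 at 6 h and 5.31 to 5.60 with vehicle. Of the 7 neutrophil markers tested 3 were above vehicle at 24 h and 4 at 6 h. All 10 macrophage and dendritic markers were below vehicle at both times, with medians of -0.90 at 24 h and -0.78 at 6 h, and their summed intensity was 2637 to 14555 at 24 h, 6010 to 13740 at 6 h and 11284 to 22637 with vehicle. Here too 24 h replicate 4 was lowest, with a mean of 7.20 for the macrophage and dendritic markers, beside 8.95 to 9.35 on the other 24 h arrays. The part of either cell type in the calprotectin values was not tested.

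S100a7l2 read 6.38, 4.52, 6.68 and 4.00 at 24 h, 6.40, 4.41, 4.00 and 4.77 at 6 h, and 6.27, 6.06 and 6.40 with vehicle. The vehicle arrays were close together while the treated arrays were split between the vehicle level and the floor. Its differences were -0.85 ± 0.68 at 24 h (adjusted p = 0.763) and -1.35 ± 0.68 at 6 h (adjusted p = 0.362). The 24 h value ran from -1.28 without 24 h replicate 3 to -0.38 without 24 h replicate 4. S100a13 differed by -0.27 at 24 h and -0.61 at 6 h. S100a1, S100a4, S100a6 and S100a10 differed by -0.11 to 0.17 at 24 h and by -0.18 to 0.19 at 6 h. A second bright probe set of S100a10 had the opposite sign, with -0.23 at 24 h and -0.34 at 6 h.

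Tchh, Tchhl1 and S100a3 are the hair-associated members: trichohyalin hardens the inner root sheath, and S100a3 is a protein of the hair cuticle. Tchh read 6.83, 12.75, 7.53 and 7.67 at 24 h, 6.59, 8.26, 7.86 and 11.24 at 6 h, and 7.69, 8.23 and 12.09 with vehicle. S100a3 read 4.82, 9.73, 5.18 and 4.89 at 24 h, 4.54, 5.54, 5.52 and 5.37 at 6 h, and 5.60, 5.65 and 8.56 with vehicle. Tchhl1 read 4.00, 7.02, 4.44 and 5.32 at 24 h, 4.06, 5.20, 4.98 and 5.71 at 6 h, and 4.52, 4.95 and 7.64 with vehicle. In all 3 genes 24 h replicate 2 and vehicle replicate 4 were far above the rest of their groups, and the SD within the 24 h group and within the vehicle group exceeded the difference between them. The same 2 arrays had the highest mean of the 14 hair markers, 9.07 on 24 h replicate 2 and 8.05 on vehicle replicate 4, beside 4.84 to 6.10 on the 6 h arrays. Their summed intensity was 254 to 10716 at 24 h, 245 to 1068 at 6 h and 446 to 5611 with vehicle, with Krt33b, Krt35, Krt86 and Padi3 below the filter. Tchh differed by -0.64 ± 1.54 at 24 h (adjusted p = 0.928) and -0.85 ± 1.54 at 6 h (adjusted p = 0.811). Leaving out 1 array took the 24 h value from -1.99 (without 24 h replicate 2) to 0.73 (without vehicle replicate 4) and the 6 h value from -1.77 (without 6 h replicate 5) to 0.53 (without vehicle replicate 4). S100a3 at 6 h lay below all vehicle arrays, by 1.36 ± 1.11 (adjusted p = 0.571), but by 0.38 without vehicle replicate 4. At 24 h S100a3 differed by -0.45 ± 1.11 (adjusted p = 0.932), and by 0.53 without that vehicle array.

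**Figure D5:**
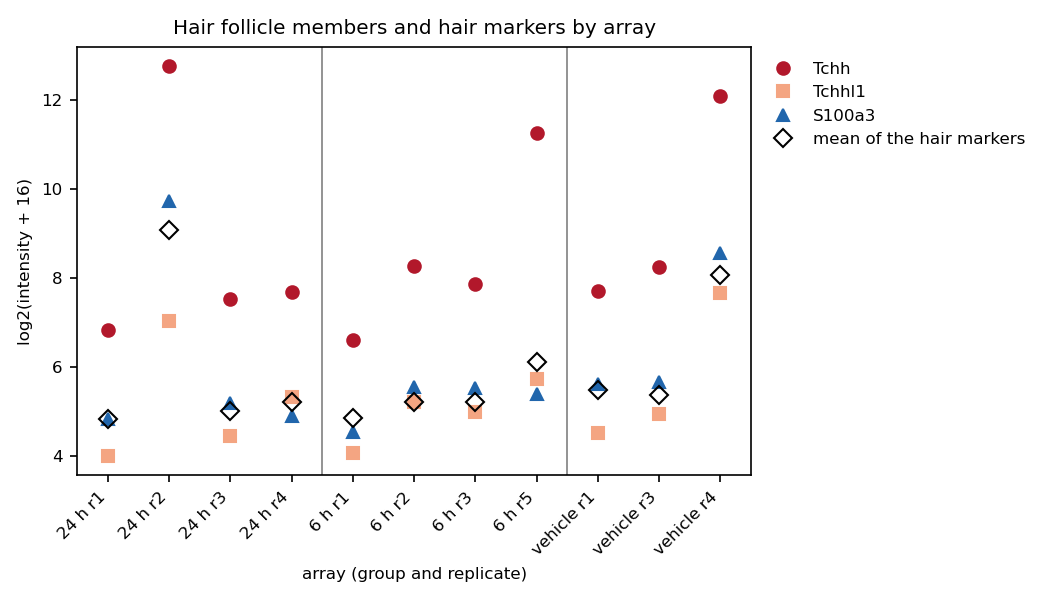
The level of Tchh, Tchhl1 and S100a3 and the mean level of 14 hair markers (log2(intensity + 16)) are drawn for each array, with 24 h, 6 h and vehicle from left to right. All 4 quantities are highest on 24 h replicate 2 and on vehicle replicate 4, where Tchh reads 12.75 and 12.09.

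The 10 members left out as too dim were Lce3a, Lce3b, Lce3c, S100a5, Sprr1b, Sprr2f, Sprr2i, Sprr2j-ps, Sprr2k and Sprr3. Lce3a, Lce3c and Sprr2j-ps were at the floor on all 11 arrays. To be tested, a gene had to exceed 5.21, the array's 40th percentile, in 3 or more arrays. Just inside it were Tchhl1 on 4 arrays and Lce3f and Sprr2d on 5 each, and just outside it were Sprr1b, Sprr2k, Sprr2f and Lce3b on 2 each. Sprr1b, for example, reached 5.51 on 24 h replicate 1 and 6.91 on vehicle replicate 3 and was at 5.12 or less on the other 9 arrays.

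Genes that process or regulate the products of the complex also gave no call in any contrast. Of 29 tested genes for cross-linking, processing and proteolysis of the cornified layer, 14 were higher and 15 lower at 24 h against vehicle (median -0.0097), and 10 were higher and 19 lower at 6 h (median -0.24). Asprv1, the protease that cleaves profilaggrin, read 10.997, 10.52, 10.63 and 10.25 at 24 h, 10.89, 10.66, 10.57 and 10.27 at 6 h, and 11.16, 11.03 and 11.23 with vehicle. Every treated array lay below every vehicle array, as for 2 of the 29 genes at 24 h and 4 at 6 h, beside 6.02% and 8.77% of all genes lower at these times. Asprv1 was lower by 0.54 ± 0.21 at 24 h (adjusted p = 0.59) and by 0.54 ± 0.21 at 6 h (adjusted p = 0.249). Serpinb12, a protease inhibitor, was lower by 1.37 ± 0.45 at 6 h than with vehicle (adjusted p = 0.206) and higher by 1.50 ± 0.41 at 24 h than at 6 h (adjusted p = 0.286).

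Of 18 tested suprabasal partners (differentiation keratins and junction proteins), 10 were higher and 8 lower at 24 h, and 9 were higher and 9 lower at 6 h. The arrays did not overlap vehicle for 1 of the 18 at each time, namely Krt10, lower by 0.43 at 24 h (beside 6.02% of all genes lower), and Krtdap, higher at 6 h (beside 9.77% higher), shares no larger than those of the whole array. Of the 6 wound and stress keratins 3 were higher and 3 lower at 24 h, and 5 were higher and 1 lower at 6 h.

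Of 37 tested regulators of the complex, 21 were higher and 16 lower at 24 h (median 0.14), and 24 were higher and 13 lower at 6 h (median 0.22). At 6 h against vehicle the arrays did not overlap for 9 of the 37, with 8 higher, beside 9.77% of all genes, and 1 lower, beside 8.77%. The 8 included the 3 Grainyhead-like factors, a family whose member Grhl3 is needed for the epidermal barrier in mice. Grhl3 read 6.90, 6.80, 6.92 and 7.04 at 24 h, 7.65, 7.67, 7.52 and 7.38 at 6 h, and 7.01, 7.19 and 7.36 with vehicle. Each 6 h array lay above all vehicle arrays, the closest pair being 7.38 on 6 h replicate 5 and 7.36 on vehicle replicate 4. Grhl3 was lower by 0.64 ± 0.14 at 24 h than at 6 h (adjusted p = 0.211) and higher by 0.37 ± 0.15 at 6 h than with vehicle (adjusted p = 0.278). Grhl1 was higher by 0.53 ± 0.17 at 6 h (adjusted p = 0.207) and Grhl2 by 0.98 ± 0.35 at 6 h (adjusted p = 0.234). Sp1, a general promoter-binding factor, was higher by 0.87 ± 0.19 at 24 h (adjusted p = 0.442). Ppard, a nuclear receptor, was lower by 0.80 ± 0.26 at 24 h (adjusted p = 0.531).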

How the data were processed

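A 3' IVT kit amplified 200 ng of each mouse's total RNA, per the labels' protocols. The deposited values are linear intensities of 45101 probe sets for each of 11 arrays. How the authors summarised, background-corrected and scaled them is not given in the sources used here. Negative intensities made up 12.9% to 16.6% of each array. Probe sets of 1 gene numbered 34958, those of several genes 932, and 9211 were unnamed here; symbols of 34754 were updated through Entrez identifiers.

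From these, intensities were quantile-normalized, set to at least 0 and taken as log2(intensity + 16). The brightest probe set stood for each gene, and 13710 of 18194 genes above the 40th percentile on at least 3 arrays were kept. limma 3.58.1 in R 4.3.3 (lmFit, eBayes) fitted all 11 arrays with 1 mean per group and no covariate. Tests were two-sided, with Benjamini-Hochberg adjustment over all genes kept and a threshold of 0.05. The number of arrays limits the precision. At most 3 intensities were identical between 2 arrays.

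The members, the lists of other genes and markers, and the tests were chosen with earlier results of these data known. Values in every array are given for up to 8 members of smallest p per contrast and for Flg, Lor, Ivl, Hrnr, Tchh, S100a8 and S100a9, and of each list outside the complex up to 4 genes of smallest p per contrast could be named. Lce1c, Sprr2h, S100a3 and Tchhl1, where outside that rule, were added after their values were seen.

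To see whether replicate numbers pair arrays, each array's deviation from its group mean was correlated across genes between arrays of the same number. For 24 h and vehicle these correlations were 0.25, 0.13 and 0.21, all over the criterion of 0.1. From the data alone, the numbers were therefore used as a block in an alternative fit, and not in the main fit. Arrays of different numbers in these groups reached 0.21, 0.17, 0.13 and 0.12, so the criterion cannot show that the numbers mark pairs. The same numbers gave -0.06, -0.35 and 0.17 between 24 h and 6 h and -0.12 and -0.07 between 6 h and vehicle. On simulated data made like 6 h minus vehicle with 13710 genes, the fit called 37% of 100 genes given a log2 change of 1, 84% of 100 given a change of 2, and 5 genes given none. The simulated noise was independent between genes, with no floor and no differences in quality between arrays. These rates therefore do not give the power for the members on the real arrays. Alternatives were other scalings, filters, constants, probe set choices and variance models, the replicate block, the actin ratio as a covariate, and each array left out. Leaving out the 3 arrays of lowest actin ratio, or the 2 of highest hair marker level, was chosen after seeing the data. Without those 3 arrays the 6 h group kept replicates 1 and 2 only.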

Additional observations from a re-analysis of the deposited data

Results flagged for a closer look

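Flg and S100a16 are listed because their 24 h and 6 h differences against vehicle had opposite signs and the 24 h and 6 h arrays did not overlap. For Flg the contrast 24 h minus 6 h was -1.32 (adjusted p = 0.125), and for S100a16 it was 0.52 (adjusted p = 0.476). Neither passed the threshold, and on a second bright probe set of S100a16 the 24 h and 6 h arrays overlapped.

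Single arrays far from the rest of their group appeared in 8 of 70 groups of 4 arrays tested. The 70 groups come from 35 genes on the same arrays and are not independent. The test's nominal rate of about 1 in 20 therefore cannot show an excess, and the share among all genes is not given here. At 24 h, replicate 2 read 12.75 for Tchh (next array 7.67), 9.73 for S100a3 (next 5.18) and 11.83 for S100a16 (next 11.52). At 6 h, replicate 3 was low for 4 Lce genes: it read 11.66 for Lce1a1 (next 12.31), 10.76 for Lce1b (next 11.72), 9.53 for Lce1f (next 10.43) and 8.90 for Lce1h (next 9.22). At 6 h, replicate 1 read 4.54 for S100a3 (next 5.37), near the floor. These arrays include 2 of the 3 with the lowest actin ratio.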

How the results depend on the processing

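No member was called in any contrast with 1 array left out, where the lowest adjusted p was 0.293 for 24 h minus vehicle, 0.103 for 6 h minus vehicle and 0.148 for 24 h minus 6 h, and the count was 0 to 0 throughout. The replicate block also left 0 members called in each contrast, with medians of -0.050, 0.062 and -0.045 for the contrasts in that order. On the values as deposited 4 members were called at 6 h (Lce1i, Rptn, Sprr1a and Sprr2d), among 859 genes called. All 4 were lower, on a scale where the median gene was itself below vehicle. Relative to the median gene they differed by -0.91, -1.67, -1.67 and -1.03, in that order. Array weights called 11 of 35 members at 6 h (Flg, Ivl, Kprp, Lce1a1, Lce1i, Rptn, S100a13, S100a14, Sprr1a, Sprr2d and Sprr2h), beside 2498 of all 13710 genes. Between 24 h and 6 h they called 1 of 35, Flg, beside 423 of all 13710 genes. These weights ran from 0.270 for 24 h replicate 4 to 4.85 for vehicle replicate 3. Sprr2d, called at 6 h under both alternatives, passed the filter of the main fit through its 3 vehicle arrays. Whether members were called more often than other genes, as deposited or with array weights, was not tested. The members' median at 24 h against vehicle was -0.66 as deposited and -0.24 with median scaling, and with 1 array left out it ran from -0.094 to -0.00094. At 6 h it was -0.56 as deposited, -0.0076 with array weights, -0.023 with the actin covariate, -0.064 without the 3 arrays of lowest actin ratio, and 0.025 to 0.23 with 1 array left out. Between 24 h and 6 h it was -0.26 with median scaling, -0.22 with a 60th-percentile filter, -0.18 without the 2 arrays of highest hair marker level, and -0.18 to -0.021 with 1 array left out. The median of all genes moved with the scaling too, to -0.23 at 24 h, -0.091 at 6 h and -0.12 between them with median scaling. As deposited, the median of all genes was itself below vehicle at both times. It lay above the members' median at 24 h and below it at 6 h. The causes of these moves were not tested. Of 627 values of single genes with 1 array left out, 605 kept their direction and side of the threshold, and 22 uncalled values changed sign. Under the other alternatives 776 of 843 did, 53 uncalled values changed sign and 14 were newly called. Signal near the floor limits Sprr2d, Sprr2h, S100a7l2 and Tchhl1.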
